A study of Mus musculus with 10 samples.

Results

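The sarcomere and Z-disc genes described here are 30 mouse genes chosen by symbol for the contractile filaments of heart muscle and the structures that hold them in register. Each symbol matched 1 row of a count table with 31655 gene IDs. All 30 passed the filter on low counts, among 16850 genes tested. RNA was sequenced from the hearts of mice given lipopolysaccharide (LPS, a bacterial cell wall component used to model septic cardiomyopathy) with or without baicalin, a plant flavone glycoside. The 5 libraries of the LPS group came from mice gavaged with distilled water before 1 intraperitoneal injection of LPS at 10 mg/kg. The 5 libraries of the baicalin group, labelled Ba+LPS, came from mice gavaged with baicalin at 100 mg/kg for 14 days before the same injection. Hearts were taken 72 hours after LPS in both groups, so every library here is labelled as coming from an LPS-treated animal, and the saline group of the design was not analysed here. The labels used here give no strain, sex or age, and they do not say which animal gave which library; the p-values therefore rest on the spread among libraries alone.

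Sarcomeres are the repeating contractile units of striated muscle. Thick filaments of myosin pull on thin filaments of actin, and the troponin complex on tropomyosin switches the pull on when calcium rises. Titin spans from the Z-disc, where actin filaments of neighbouring sarcomeres are crosslinked by alpha-actinin, to the M-band, where myomesins link the thick filaments, and desmin ties Z-discs to each other and to the cell membrane. In ventricular muscle these genes are among the most highly transcribed of the nuclear genome, and many are mutated in inherited cardiomyopathies.

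The members took between 8.97% and 15.04% of the counts of nuclear genes in a library. In LPS libraries 1 to 5 their share was 14.4%, 14.0%, 15.04%, 8.97% and 9.81%. In baicalin libraries 1, 2, 3, 5 and 7 it was 10.2%, 12.4%, 11.9%, 11.02% and 10.3%, and values per library below follow these same orders. LPS libraries 1, 2 and 3 stood above every other library, and LPS 4 and 5 below every baicalin library. The group means were 12.4% ± 2.83 for LPS and 11.2% ± 0.976 for baicalin plus LPS (SD, n = 5 each).

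LPS 1, 2 and 3 also differed from the rest of the libraries in other transcripts. The summed level of 3 acute-phase genes (Saa3, Lcn2 and Serpina3n) was 19.0 to 23.4 CPM (counts-per-million values, scaled between libraries by edgeR's TMM factors) in those 3, against 1233 to 2310.5 in LPS 4 and 5 and 441 to 1561 with baicalin. The LPS treatment of LPS 1, 2 and 3 is known from the labels alone and was not tested, and each LPS mean and fold change below includes these libraries unless they are said to be left out. Baicalin libraries 2 and 3 stood apart by atrial transcripts: the 7 atrial markers summed to 1324 and 381 CPM there, and to between 74.4 and 185 CPM in the other 8 libraries. They also had the highest sums of fibroblast markers (1412 and 2098 CPM, at most 875 elsewhere) and of macrophage markers (1205 and 1309, at most 834 elsewhere). Their sums of cardiomyocyte genes outside the sarcomere were the lowest (20442 and 18919 CPM). Totals ran from 39.4 to 75.7 M counts, and 30.2% to 44.1% of a library came from mitochondrially encoded genes. Values without these libraries are given beside the results that they moved most, and the plot of fold changes shows every member without LPS 1, 2 and 3.

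No member differed between baicalin plus LPS and LPS at an adjusted p under 0.05 in edgeR's quasi-likelihood test (0 of 30, and 0 of 16850 genes, a background of 0%). Fitted values were lower with baicalin for 26 members and higher for 4 (Tnnt2, Nebl, Nexn and Smpx), with a median log2 fold change of -0.29, beside -0.0038 over all genes, of which 50.6% were lower. At an unadjusted p under 0.05, 7 members (23.3%) were lower, beside a background of 5.88% of genes, and 0 were higher, beside 5.26%. The 7 were Myl2, Myl3, Tnnc1, Lmod2, Ttn, Myom2 and Actn2. For no member did the 2 groups fail to overlap (0 of 30, beside 2.46% of genes).

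Many of the lower values with baicalin went with the first 3 LPS libraries. LPS 1, 2 and 3 were the 3 highest of the 10 libraries for 15 of 30 members (50%), beside 9.55% of genes, and the 3 lowest for 0 members, beside 9.61%. Without them, 13 members were lower and 17 higher with baicalin, the median was 0.058 (0.045 over all genes, of which 45.8% were lower), and 0 members passed the adjusted threshold. At an unadjusted p under 0.05, Myom2, Flnc and Des were then lower (3 members, beside 7.25% of genes), and Myh7b, Tmod1, Nebl, Nexn, Smpx and Fhl2 higher (6 members, beside 4.8%). Without Ba+LPS 2 and 3, 1 member (Mybpc3) was lower at that level, beside 5.43% of genes.

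**Figure D1:**
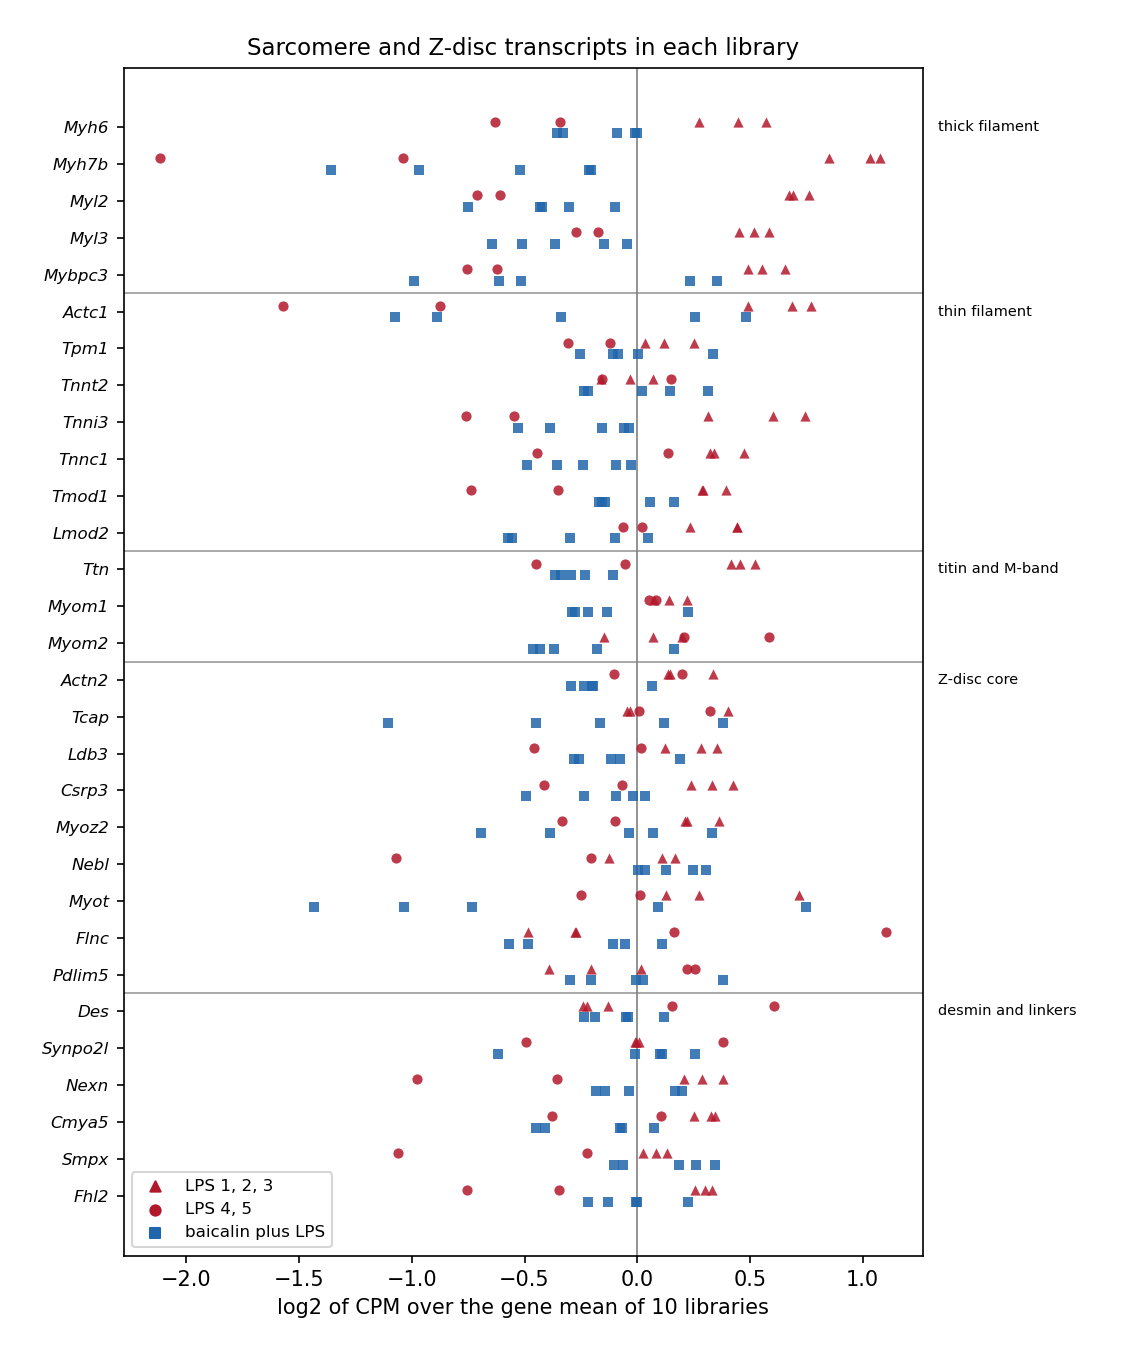
Each row is a member, in 5 role groups, and each mark a library: log2 of its CPM over the gene's mean over 10 libraries, with LPS 1, 2 and 3 as triangles, LPS 4 and 5 as circles and baicalin plus LPS as squares. The triangles lie to the right of all other marks in 15 of 30 rows, most of them in the thick and thin filament groups.

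Other tests called different numbers of members. DESeq2 called 0 members at an adjusted p under 0.05, beside 1.53% of genes. The limma-voom fit with sample quality weights called 14 members lower, beside 8.2% of genes, and 0 higher, with a weight of 0.16 on LPS 4 and 3.17 on LPS 1. Leaving out 1 library at a time also moved the count of 7 members lower at an unadjusted p under 0.05. It was 3 without LPS 1, LPS 2, LPS 3, Ba+LPS 1 or Ba+LPS 2, 4 without Ba+LPS 3, 6 without Ba+LPS 5 or 7, 9 without LPS 5 and 10 without LPS 4, beside backgrounds from 3.83% to 9.29% of genes. Myl3 and Lmod2 were below an unadjusted p of 0.05 in all 10 of these fits, and neither was without LPS 1, 2 and 3 together.

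Upstream sequences are shown for 4 members whose levels are described below, because they hold a CArG box or a MEF2 motif, the letters that muscle transcription factors read in many sarcomere genes. RefSeq promoter windows were at hand for 26 of the 30 members. The 250 bases before each start were searched on both strands for the CArG box bound by serum response factor, the 10-base MEF2 motif, CATTCC (bound by TEAD factors), GATAA (GATA factors), CAGCTG (an E-box) and TATAAA. A CArG box was in 6 of 26 members (23.1%: Actc1, Fhl2, Ldb3, Myl3, Myom1 and Nebl), beside 1.62% of 27025 genes. A MEF2 motif was in 4 (15.4%: Mybpc3, Myoz2, Synpo2l and Ttn), beside 0.592%. The shares for the shorter motifs were 30.8% beside 14.4% for CATTCC, 46.2% beside 25.5% for GATAA, 23.1% beside 14.7% for CAGCTG and 11.5% beside 14.3% for TATAAA. A match is a match of letters only, and some genes have more than 1 window. The windows below are on build GRCm38.p6, read 5′ to 3′ on the gene's strand. Capitals mark the CArG box in Actc1, the CArG box and 2 CATTCC motifs (1 on the other strand, read as GGAATG) in Myl3, and the MEF2 motif in Mybpc3 and Ttn.
Myl3, chr9:110763428-110763677, plus strand: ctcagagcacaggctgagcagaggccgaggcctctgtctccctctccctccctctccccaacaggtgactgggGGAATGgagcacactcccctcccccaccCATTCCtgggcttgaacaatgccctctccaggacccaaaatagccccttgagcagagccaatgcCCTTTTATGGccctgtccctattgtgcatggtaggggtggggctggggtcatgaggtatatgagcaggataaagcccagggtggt
Mybpc3, chr2:91117894-91118143, plus strand: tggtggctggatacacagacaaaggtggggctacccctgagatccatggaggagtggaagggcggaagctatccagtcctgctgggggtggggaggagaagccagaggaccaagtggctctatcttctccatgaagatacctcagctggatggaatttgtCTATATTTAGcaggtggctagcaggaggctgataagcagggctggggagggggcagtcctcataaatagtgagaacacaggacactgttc
Actc1, chr2:114052876-114053125, minus strand: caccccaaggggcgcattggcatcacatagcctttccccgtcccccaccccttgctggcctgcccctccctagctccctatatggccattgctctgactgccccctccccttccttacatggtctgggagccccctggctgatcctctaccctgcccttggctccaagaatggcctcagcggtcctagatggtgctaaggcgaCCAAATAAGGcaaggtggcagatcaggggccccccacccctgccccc
Ttn, chr2:76982548-76982797, minus strand: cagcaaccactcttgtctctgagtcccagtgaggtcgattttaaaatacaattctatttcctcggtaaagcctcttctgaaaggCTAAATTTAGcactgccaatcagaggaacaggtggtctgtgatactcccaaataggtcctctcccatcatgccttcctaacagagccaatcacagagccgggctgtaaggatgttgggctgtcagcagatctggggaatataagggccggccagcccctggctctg
The CArG box began 85 bases before the start in Myl3 and 47 in Actc1, and the MEF2 motif 90 bases before it in Mybpc3 and 166 in Ttn. CArG and MEF2 motifs did not occur together in any member's windows.

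Thick filament transcripts were all lower with baicalin in the fit of 5 against 5 libraries (5 of 5, median log2 fold change -0.59), and 4 of the 5 were higher without LPS 1, 2 and 3 (median 0.34). The 2 light chains carried the smallest p-values of the group. Myl3 encodes the essential light chain of ventricular myosin and lies at chr9:110741861-110769798 on the plus strand. Its CPM was 3967, 3609, 3781, 2188 and 2340.4 in the LPS libraries and 2052, 1853, 1691, 2557 and 2384 in the baicalin libraries. LPS 1, 2 and 3 lay above all others, and LPS 4 and 5 lay inside the range of the baicalin group. The log2 fold change was -0.59 ± 0.21 (SE; 3177 ± 845 against 2108 ± 360.4 CPM, SD, n = 5 each; edgeR adjusted p = 0.329), and it was -0.09 ± 0.21 without LPS 1, 2 and 3. Myl2 encodes the regulatory light chain of the ventricle (chr5:122100951-122113472). Its CPM was 5569, 5645, 5936, 2137 and 2293 in the LPS libraries and 2839, 2609.9, 2076, 2591 and 3269 in the baicalin libraries. LPS 1 to 3 formed a group of their own, and LPS 4 and 5 lay at or near the low end of the other 7. Its log2 fold change of -0.69 ± 0.30 (adjusted p = 0.436) turned to 0.28 ± 0.21 without LPS 1, 2 and 3.

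Myh6 encodes alpha-myosin heavy chain, the fast motor of the adult mouse ventricle (chr14:54941921-54966927, minus strand). It had the most counts of the members, 3.73% ± 1.17 of nuclear counts in the LPS group and 3.33% ± 0.427 with baicalin (SD, n = 5 each). Its CPM was 29067, 25803, 31638, 13769 and 16785 in the LPS libraries and 16639, 21169, 20018, 21294 and 16990.3 in the baicalin libraries. The spread within the LPS group, with LPS 4 the lowest of all 10 libraries and LPS 3 the highest, was wider than the whole baicalin group. Myh6 had a log2 fold change of -0.28 ± 0.23 (adjusted p = 0.686), or 0.34 ± 0.21 without LPS 1, 2 and 3. Mybpc3, cardiac myosin-binding protein C, was at 2426, 2529, 2712, 1020.1 and 1119 CPM in the LPS libraries and 1127, 2199, 2026, 866 and 1206 with baicalin. Its high baicalin libraries were 2 and 3, the same libraries that stood apart by atrial, fibroblast and macrophage transcripts. Whether these transcripts bear on Mybpc3 was not tested. The fold change was -0.40 ± 0.35 with all libraries, -0.88 without Ba+LPS 2 and 3, and 0.48 ± 0.36 without LPS 1 to 3.

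Myh7b encodes a slow-type myosin heavy chain and was the least abundant thick filament member. Its CPM was 148, 130.2, 152, 16.6 and 35.2 in the LPS libraries and 36.9, 62.2, 62.6, 28.2 and 50.4 in the baicalin libraries. The first 3 LPS libraries were above all others and LPS 4 was the lowest. The log2 fold change of -1.003 ± 0.53 (adjusted p = 0.51) became 0.90 ± 0.38 without LPS 1, 2 and 3. Trpc4ap overlaps Myh7b on the opposite strand and had 134% as many counts, and nothing used here states whether counting kept the strands separate. The genes of 3 myosin heavy chains host microRNAs in their introns, and the mature sequences from RefSeq (build GRCm38.p6) are shown because their seeds, bases 2 to 8 in capitals, are shared or differ by 1 letter. Myh7 is a paralog outside the member list, and mature microRNAs were not measured here. Rows for the microRNA genes Mir208a and Mir499 held means of 42.8 and 0.3 counts per library.
miR-208a-3p, in Myh6, chr14:54949072-54949093: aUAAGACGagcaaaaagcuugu
miR-208b-3p, in Myh7, chr14:54975710-54975731: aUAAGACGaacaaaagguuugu
miR-499-5p, in Myh7b, chr2:155622893-155622913: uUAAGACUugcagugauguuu

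Thin filament members were lower with baicalin in 6 of 7 cases (median log2 fold change -0.35), and in 2 of 7 without LPS 1, 2 and 3 (median 0.22). Lmod2 encodes leiomodin 2, which lengthens the thin filament at its pointed end (chr6:24597762-24605414, plus strand), and had the smallest p of all 30 members. Its CPM was 912, 788, 909.8, 642 and 681 in the LPS libraries and 627, 457, 450.1, 692 and 545 in the baicalin libraries. The groups overlapped through Ba+LPS 5, which exceeded LPS 4 and 5. Lmod2 had a log2 fold change of -0.51 ± 0.16 (787 ± 126 against 554 ± 106 CPM, SD, n = 5 each; edgeR adjusted p = 0.316), or -0.24 ± 0.21 without LPS 1, 2 and 3. Tmod1, tropomodulin 1, caps the same filament end. It was at 202 ± 62.3 CPM with LPS and 191 ± 20.5 with baicalin, a log2 fold change of -0.08 ± 0.21, and 0.50 ± 0.17 without LPS 1 to 3.

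The 3 cardiac troponin genes differed in pattern. Tnnc1, the calcium-binding troponin C (chr14:31208312-31211729), was at 1888, 1910.3, 2096, 1659 and 1107 CPM in the LPS libraries and 1177, 1278, 1414, 1479 and 1076 with baicalin. All LPS libraries but LPS 5 lay above the baicalin group, with a log2 fold change of -0.43 ± 0.18 (adjusted p = 0.401), or -0.09 without LPS 1, 2 and 3. The gene Nisch on the opposite strand had 13.9% as many counts. Tnni3, the inhibitory subunit, was at 4017, 3293, 4428, 1562 and 1809 CPM in the LPS libraries and 1832, 2539, 2022, 2371 and 2581 with baicalin. LPS libraries lay on both sides of the baicalin group, 3 above and 2 below it, so the log2 fold change was -0.41 ± 0.28 (adjusted p = 0.615) with them all and 0.44 ± 0.21 without the first 3. Tnnt2, which anchors the complex to tropomyosin, was at 6831, 6245, 7339, 7759 and 6274 CPM in the LPS libraries and 6011, 7720.3, 7089.6, 8673 and 5931 with baicalin. Neither LPS 1 to 3 nor the baicalin group stood out, and the log2 fold change was 0.04 ± 0.15 (adjusted p = 0.945).

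Actc1 encodes cardiac actin (chr2:114047282-114053548, minus strand). Its CPM was 7674, 9326, 8787, 1836 and 2979.6 in the LPS libraries and 4317, 7646, 6526, 2954 and 2592 in the baicalin libraries. High values were found in LPS 1 to 3 and in Ba+LPS 2 and 3. The log2 fold change of -0.35 ± 0.46 (adjusted p = 0.812) became 1.00 ± 0.45 without LPS 1, 2 and 3 and -0.90 without Ba+LPS 2 and 3. Tpm1, alpha-tropomyosin, was at 6713 ± 989.5 CPM with LPS and 6639.5 ± 1074 with baicalin, a log2 fold change of -0.02 ± 0.16. In bulk tissue, fewer cardiomyocytes and less of a transcript per cardiomyocyte cannot be told apart.

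**Figure D2:**
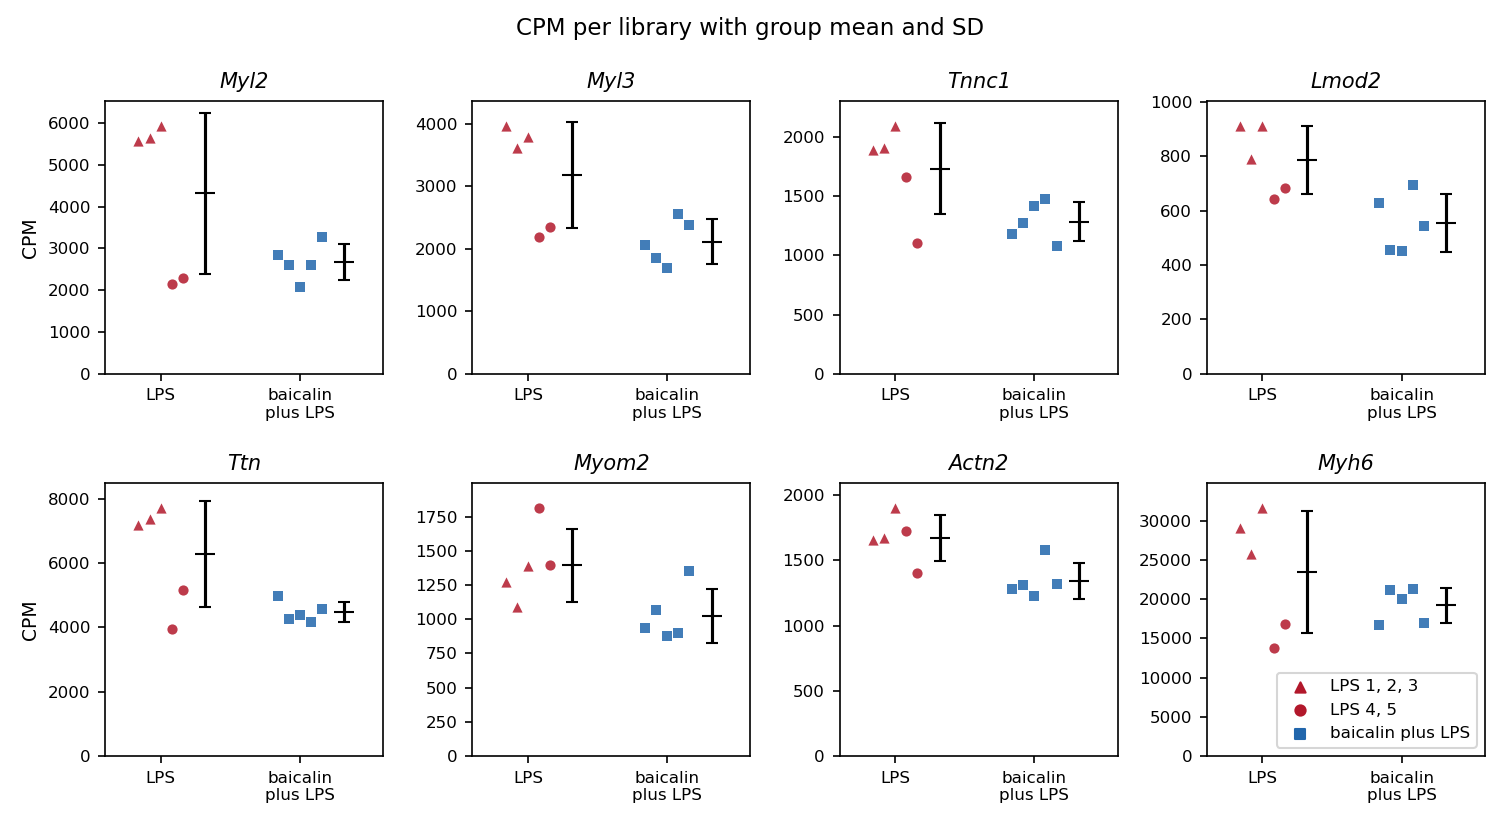
CPM of 8 members by group, with 1 mark per library (symbols as above) and the mean with its SD over 5 libraries as a bar; each axis starts at 0. Myl2, Myl3 and Ttn show the first 3 LPS libraries as a separate upper set, whereas Myom2 and Actn2 do not.

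Titin and the M-band myomesins were lower with baicalin in 3 of 3 cases, with and without LPS 1, 2 and 3 (medians -0.44 and -0.18). Titin is the elastic ruler of the sarcomere, and Ttn lies at chr2:76703980-76982547 on the minus strand. Its CPM was 7179, 7383, 7717, 3944 and 5175 in the LPS libraries and 4987, 4259.7, 4393, 4180.3 and 4583 with baicalin. LPS 4 was the lowest of all 10 libraries, and the other LPS libraries lay above the baicalin group. The log2 fold change of -0.49 ± 0.19 (6279.6 ± 1641 against 4481 ± 322 CPM; adjusted p = 0.379) became -0.02 ± 0.19 without LPS 1, 2 and 3. Myom2, the myomesin of fast and adult muscle (chr8:15057653-15133541), was at 1271, 1091, 1387, 1814 and 1399 CPM in the LPS libraries and 937, 1068, 877, 898 and 1354 with baicalin. Here LPS 4 was the highest, and Ba+LPS 7 was the baicalin library that overlapped the LPS range. For Myom2 the log2 fold change was -0.44 ± 0.17 (adjusted p = 0.379), and -0.63 ± 0.21 without LPS 1, 2 and 3. Myom1, the myomesin present in all striated muscle, was at 1637 ± 78.6 CPM with LPS and 1386 ± 221 with baicalin (-0.24 ± 0.13).

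At the Z-disc, 8 of 9 core members were lower with baicalin (median -0.28), and 5 of 9 without LPS 1, 2 and 3 (median -0.12). Actn2 encodes the alpha-actinin that crosslinks actin there (chr13:12269426-12340760, minus strand). Its CPM was 1656, 1669, 1904, 1729 and 1404 in the LPS libraries and 1279.6, 1309.8, 1229, 1577 and 1316 with baicalin. Ba+LPS 5 lay within the LPS range and the other 4 baicalin libraries below it. The log2 fold change was -0.32 ± 0.13 (1672 ± 179.8 against 1342 ± 136 CPM; adjusted p = 0.382), and -0.21 without LPS 1, 2 and 3. The other core members had unadjusted p-values above 0.05. Tcap (telethonin, which joins titin ends at the Z-disc) was at 671 ± 102 CPM with LPS and 543 ± 195 with baicalin. Ldb3 (Cypher, an alpha-actinin-binding PDZ-LIM protein) was at 897 ± 182 and 787 ± 108, and Csrp3 (muscle LIM protein) at 409.6 ± 90.2 and 336 ± 47.0. These 3 had log2 fold changes between -0.30 and -0.19. Myoz2 (calsarcin-1, a calcineurin-binding protein) was at 818 ± 153 and 715 ± 191 CPM, and Pdlim5 (another PDZ-LIM protein) at 749 ± 140.2 and 748 ± 141.

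Another 3 core members were more variable or went the other way. Nebl, nebulette, was the highest fold of the members (330.4 ± 94.8 CPM with LPS and 410.0 ± 37.5 with baicalin, log2 fold change 0.31 ± 0.20), and 0.73 without LPS 1, 2 and 3. Flnc, filamin C, was at 227, 263, 263, 683 and 356 CPM in the LPS libraries and 343, 227, 215, 306 and 295 with baicalin. LPS 4 alone lay far above the others, and the log2 fold change was -0.37 ± 0.29, or -0.89 ± 0.27 without LPS 1, 2 and 3. Without LPS 4 it was -0.0010. Myot, myotilin, was at 107 ± 28.0 CPM with LPS and 78.0 ± 49.8 with baicalin, a log2 fold change of -0.46 ± 0.37. It was -0.12 without LPS 1, 2 and 3 and -0.10 without Ba+LPS 2 and 3.

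Among desmin and the linker proteins, 4 of 6 members were lower with baicalin (median -0.02), and 2 of 6 without LPS 1, 2 and 3 (median 0.26). Cmya5 (myospryn, a desmin-associated protein) had the smallest p of this group. Its CPM was 755, 806, 798, 489 and 684 in the LPS libraries and 606, 478, 465, 602 and 669 with baicalin. LPS 4 lay inside the baicalin range and the other LPS libraries above it, with a log2 fold change of -0.33 ± 0.17 (adjusted p = 0.492), or -0.047 ± 0.21 without LPS 1, 2 and 3. Des, desmin, was at 1436, 1418, 1533, 2556 and 1865 CPM in the LPS libraries and 1621, 1425, 1474, 1819 and 1632 with baicalin. Its 2 highest libraries were LPS 4 and 5, and the log2 fold change was -0.14 ± 0.18 (adjusted p = 0.797), or -0.46 without LPS 1, 2 and 3. Nexn (nexilin) was at 678 ± 230.0 and 687 ± 84.3 CPM, Smpx (a small protein of striated muscle) at 122 ± 34.2 and 148 ± 20.2, and Fhl2 (a protein built of LIM domains) at 955 ± 286 and 931 ± 111. All 3 were higher with baicalin without LPS 1, 2 and 3, by 0.65, 0.73 and 0.53 on the log2 scale. Synpo2l, a Z-disc synaptopodin-like protein, was at 97.2 ± 20.3 and 96.9 ± 20.02 CPM, a log2 fold change of -0.00 ± 0.18.

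**Figure D3:**
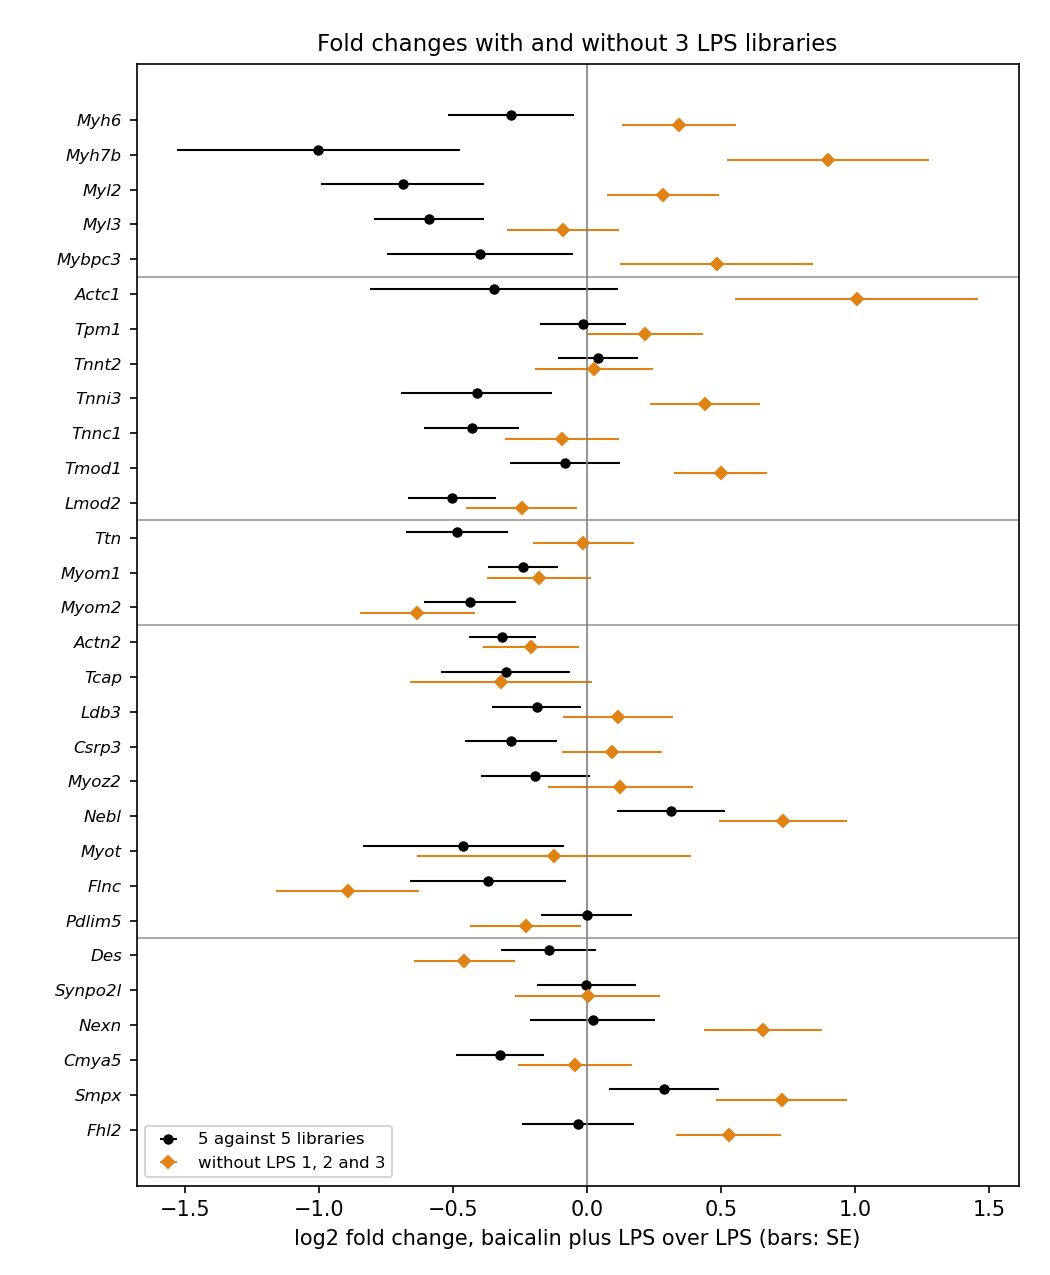
Fitted log2 fold change of each member, baicalin plus LPS over LPS, with its SE as a bar: circles are the fit of 5 against 5 libraries and diamonds the fit without LPS 1, 2 and 3. The circles lie at or left of 0 for 26 members, and for 13 members the diamonds move to the right of 0.

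Levels between genes were compared per length, in deposited FPKM (fragments scaled by gene length and library size). Actc1 and Myh6 came first, at 3519.8 ± 1795 and 3303 ± 809.9 FPKM in the LPS group and 3151 ± 1688 and 2949 ± 461 with baicalin (SD, n = 5 each), and their ranges overlapped in both groups. Myl2 (2080.4 ± 775 and 1413 ± 244) followed, below Myh6 in every library of both groups, although the ranges of these genes overlapped in the LPS group. Tnnc1 (1602 ± 271 and 1269.6 ± 174) and Myl3 (1484 ± 268 and 1052 ± 113) came next, each with a range that overlapped that of the gene before it. The giant Ttn, with the longest model at 117334 bases, was at 51.1 ± 8.90 and 39.4 ± 4.49 FPKM, although its CPM was among the 5 highest of the members in every library. Myh7b was last at 13.4 ± 8.49 and 7.65 ± 2.99 FPKM.

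**Figure D4:**
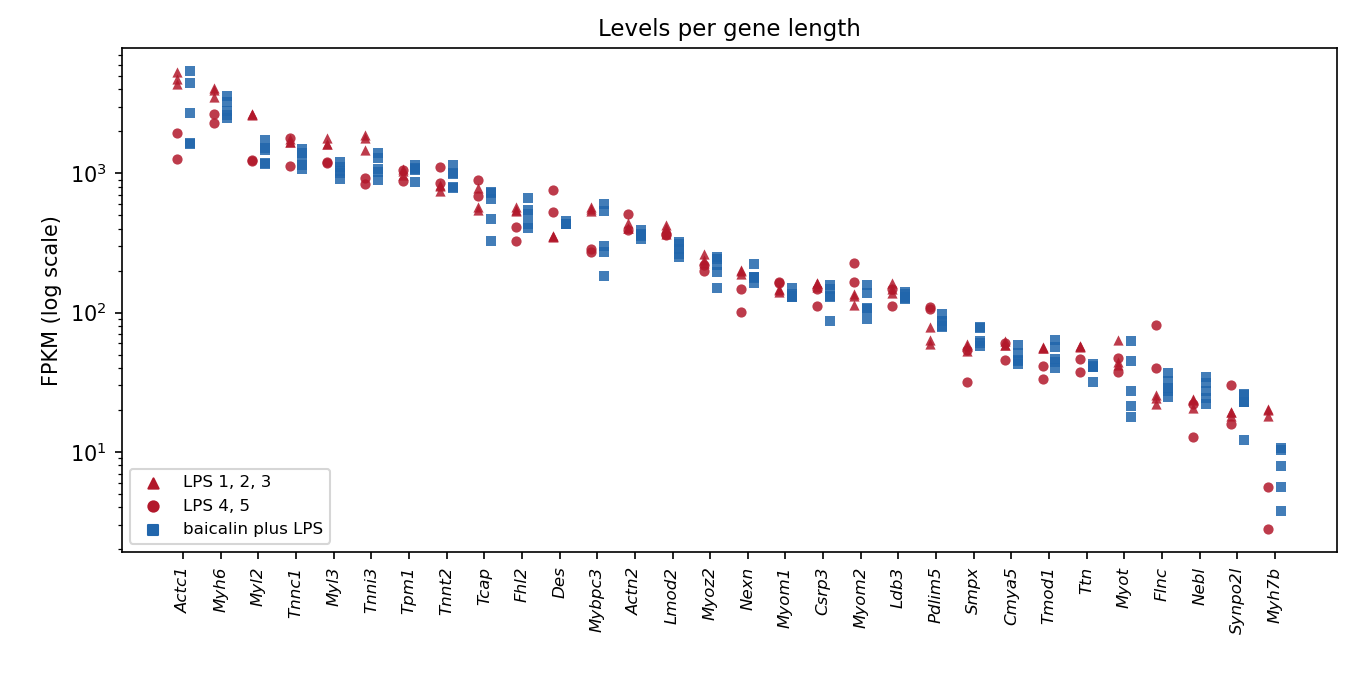
FPKM of each member in each library on a log axis, ordered by the mean over the 10 libraries. The order runs from Actc1 and Myh6, above 1000 FPKM in every library, to Myh7b, and the marks of most neighbours overlap.

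Ratios of 8 paralog pairs within a library were computed as the log2 ratio of FPKM + 0.01. None passed a threshold of 0.05 on the adjusted p (two-sided exact permutation tests of 5 against 5 libraries, smallest p possible 0.00794, adjusted over 8 ratios). Myh7, the slow beta-myosin of the fetal and stressed mouse ventricle, made up 0.814%, 1.41%, 0.766%, 8.51% and 9.71% of the summed FPKM of Myh7 and Myh6 in the LPS libraries. With baicalin it made up 6.002%, 3.596%, 2.62%, 1.98% and 7.16%. All 5 baicalin libraries lay between LPS 1 to 3 below and LPS 4 and 5 above, and the mean log2 ratio differed by 0.69 (exact p = 0.46, adjusted p = 0.526), or by -1.33 without LPS 1, 2 and 3. Skeletal actin Acta1 made up 2.35%, 3.36%, 1.56%, 10.5% and 5.12% of Acta1 and Actc1 in the LPS libraries and 5.83%, 1.83%, 3.29%, 5.12% and 3.93% with baicalin. LPS 4 was the highest and LPS 3 the lowest, and the difference was 0.01 (exact p = 1). Where the paralogs of a pair are alike in sequence, reads may be split between them, and this was not measured.

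With all 10 libraries, the largest ratio differences were those of the atrial light chains. Myl7, the atrial regulatory light chain, made up 14.3% and 4.22% of Myl7 and Myl2 in Ba+LPS 2 and 3 and at most 0.344% in the other 8 libraries. Myl4, the atrial essential light chain, made up 3.88% and 1.00% of Myl4 and Myl3 in the same 2 libraries. The log2 differences were 3.24 for Myl7/Myl2 (exact p = 0.0714) and 3.01 for Myl4/Myl3 (exact p = 0.0635), with an adjusted p of 0.19 for each. Without Ba+LPS 2 and 3, a setting chosen after seeing the data, they were 0.86 and 0.62. The ratio of Tnni1, the slow skeletal and fetal troponin I, to Tnni3 differed by 1.35 (exact p = 0.0635, adjusted p = 0.19), at 0.00786 to 0.196 FPKM of Tnni1. Such levels are near the added 0.01 FPKM, and with 1 FPKM added the difference was 0.31. Myh7b/Myh6, Tpm2/Tpm1 and Myom2/Myom1 differed by -0.39, 0.19 and -0.19, with exact p-values of 0.405, 0.333 and 0.444.

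**Figure D5:**
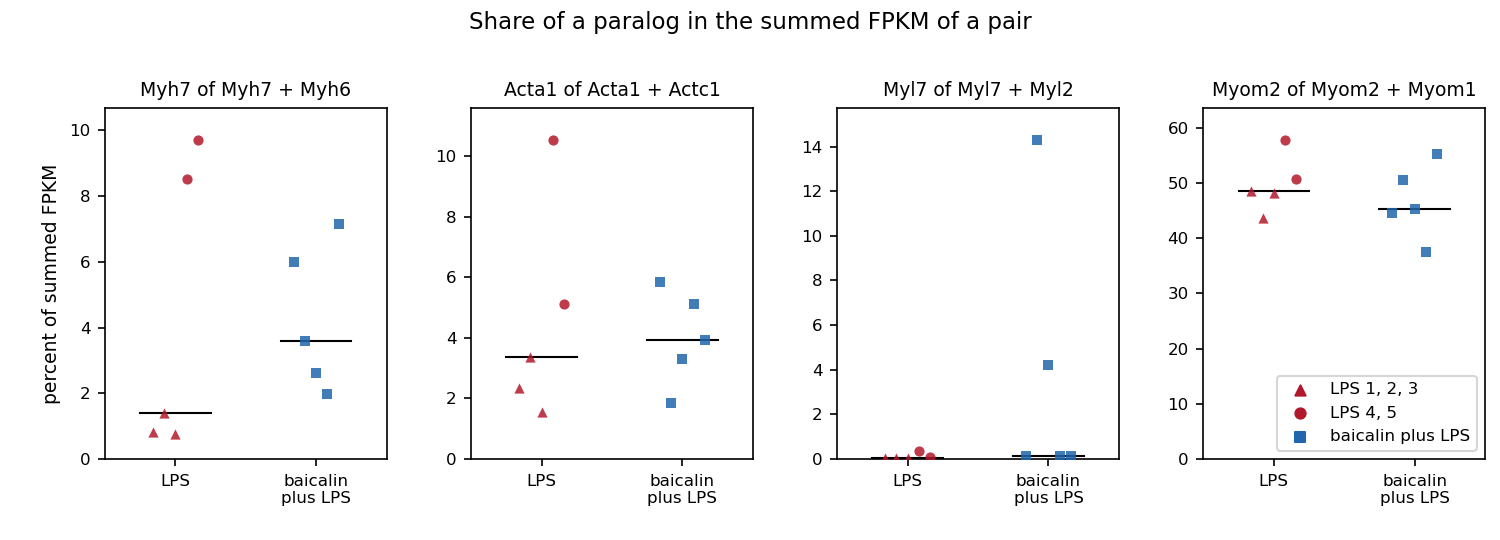
Percent of the summed FPKM of a pair taken by the first gene, with 1 mark per library and a line at the group median, for Myh7 with Myh6, Acta1 with Actc1, Myl7 with Myl2 and Myom2 with Myom1. Baicalin libraries lie between the 2 sets of LPS libraries for Myh7, and 2 baicalin libraries, at 14.3% and 4.22%, stand alone for Myl7.

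A list of 49 other sarcomere genes (paralogs, nebulin, capping proteins and ankyrin repeat proteins among them) held 48 genes that were tested. In this list 27 genes were lower and 21 higher with baicalin, with a median of -0.14, and 0 passed edgeR's adjusted threshold. DESeq2 called Myl4, Myl7 and Mybphl higher, atrial muscle genes that were high in Ba+LPS 2 and 3. The groups did not overlap for Neb (nebulin, 20.8 ± 3.77 against 15.2 ± 1.07 CPM, -0.45 ± 0.13, or -0.24 without LPS 1, 2 and 3). They did not for Speg (a striated muscle kinase, 219 ± 21.0 against 171 ± 17.7 CPM, -0.36 ± 0.11, or -0.35 without those libraries). Capza2, a capping protein gene named after its values were seen, was higher with baicalin without overlap (105 ± 9.96 against 124 ± 8.49 CPM, 0.25 ± 0.10). Over all genes, the groups did not overlap for 2.46%. Of the higher genes, Pdlim3 was at 17.02 ± 1.76 and 25.02 ± 5.95 CPM (0.56 ± 0.16, adjusted p = 0.301), and Myl7 and Myl4 reached 132 and 169.8 CPM in Ba+LPS 2. Ankrd1, a stress-responsive ankyrin repeat protein named after its values were seen, was at 592 to 715 CPM in LPS 1 to 3, 6727 and 3218 in LPS 4 and 5, and 1519 to 3620.0 with baicalin.

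Another list held 42 tested genes for sarcomere assembly, chaperones, turnover and transcription. Here 24 were lower and 18 higher with baicalin, with a median of -0.04, and 0 passed the adjusted threshold. At an unadjusted p under 0.05, 3 of the 42 were lower, beside 5.88% of all genes, and 5 were higher, beside 5.26%. The 3 lower were the kinase family gene Alpk3 (-0.40 ± 0.13), the myosin chaperone Unc45b (-0.29 ± 0.10) and the small heat shock protein gene Hspb1 (-1.18 ± 0.49). Without LPS 1, 2 and 3 these values were -0.16, -0.14 and -1.98. Hspb1 was at 389 CPM in LPS 4 and at 50.6 to 94.8 in the other 9 libraries. Of 5 that were higher, the smallest p-values were those of Mef2c (0.39 ± 0.13; 55.7 ± 9.72 against 72.9 ± 4.08 CPM), Gata4 (0.34 ± 0.11) and Hspb3 (0.50 ± 0.17). Mef2c and Gata4 encode heart transcription factors. The groups did not overlap for Mef2c and for Nkx2-5, another heart transcription factor (25.7 ± 2.43 against 30.7 ± 2.04 CPM, 0.26 ± 0.093). Over all genes, 2.46% showed no overlap.

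Some lists of marker genes for heart muscle and other cell types moved with LPS 1, 2 and 3 and others did not, and their part in the results was not tested. Of 17 cardiomyocyte genes outside the sarcomere, all were tested. LPS 1 to 3 were the 3 highest for 6 and the 3 lowest for 1 (Popdc2). Fabp3 was at 1288 to 1515 CPM in LPS 1 to 3, at 2576 and 2254 in LPS 4 and 5, and at 929 to 3513 with baicalin. Most of the summed level was Atp2a2 and Mb. The sum was 31989 to 33659 CPM in LPS 1 to 3 and 21213 to 25129 in LPS 4 and 5. With baicalin it was 18919 to 29324 CPM. Macrophage markers (10 tested, LPS 1 to 3 the 3 lowest for 7) summed to 195 to 229.8, 519 to 536 and 312 to 1309 CPM in the same order. Neutrophil markers (7 tested, the 3 lowest for 6) summed to 2.01 to 4.47, 33.8 to 154 and 25.8 to 75.0 CPM. Smooth muscle and pericyte markers (9 tested, the 3 highest for 3) summed to 1280.2 to 1387, 755 to 833 and 709 to 1065 CPM. Most of that sum was Rgs5 and Abcc9, and some markers in it did not share its pattern. Acta2 was at 81.8 to 152, 171 to 194 and 99.4 to 310 CPM in the same order. The 9 fibroblast markers (LPS 1 to 3 the 3 lowest for 1) summed to 549 to 612, 756 to 787 and 484 to 2098 CPM, and the 10 endothelial markers (highest or lowest for 0) to 2579 to 2903, 4496 to 4779 and 2399.8 to 6092 CPM. Most of the endothelial sum was Cd36 and Fabp4, and some markers in it, such as Kdr and Tek, did not share its rise in LPS 4 and 5. The 10 tested skeletal muscle markers summed to 1371 to 1487, 833 to 838 and 675 to 749 CPM, most of it Ckm, which heart muscle also expresses. The 5 erythroid markers (highest or lowest for 0) ranged in sum from 13.2 to 485 CPM with LPS and from 21.5 to 72.6 with baicalin.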

How the data were processed

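Transcripts were measured by mRNA sequencing of total RNA from 10 mouse heart libraries, 5 LPS and 5 Ba+LPS. The authors deposited whole-number read counts per Ensembl gene, with no normalization, and FPKM values, which are those counts divided by a fixed gene length and the library size. Per the submitters' processing notes the build was mm10. How reads were aligned, counted and assigned to strands is not given in the sources used here. Even numbers made up 61.6% to 64.7% of low values (1 to 50) per library, so a count does not equal an independent fragment. Symbols and coordinates came from GENCODE M21.

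The members and gene lists were chosen with earlier results of these data known. Counts were tested with edgeR 4.0.16 in R 4.3.3 (TMM, filter by group, robust quasi-likelihood F test, two-sided, Benjamini-Hochberg adjustment over 16850 genes, threshold 0.05); the biological coefficient of variation was 31.4%. Groups follow the treatment labels. Values per library were given for members with an unadjusted p under 0.05, the smallest p in each of 5 role groups, and Myh6, Actc1, Tnnt2, Tnni3, Ttn and Des, plus Myh7b, Mybpc3 and Flnc, added after their values were seen. Up to 3 genes of smallest p per direction were named from each further list; a gene that this rule names is not reported here. Alternatives were DESeq2 1.42.0, limma 3.58.1 voom with quality weights, other size factors, no filter, mitochondrial genes left out, a replicate block, and libraries left out. The edgeR fit was tested on simulated data.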

Additional observations from a re-analysis of the deposited data

Results flagged for a closer look

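In each group of 5 libraries, a library was picked out where its gap to the nearest other exceeded Dixon's 95% limit. Of 78 groups tested 3 were picked out, and chance alone gives about 3.9. Myom1 was at 1769 CPM in Ba+LPS 5 and at 1236 to 1376 in the other baicalin libraries. Actn2 was at 1577 CPM in the same library and at 1229 to 1316 in the others. Flnc was at 683 CPM in LPS 4 and at 227 to 356 in the other LPS libraries.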

How the results depend on the processing

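The count of members past the adjusted threshold was 0 in every alternative except limma-voom with quality weights, which called 14. Over all genes the count was 2 without the filter on low counts, 258 with DESeq2 and 2974 with voom weights. The count of members at an unadjusted p under 0.05 was 20 with voom weights, all lower, beside 2696 lower and 2956 higher of 16850 genes. It was 1 without Ba+LPS 2 and 3, beside 5.43% of genes lower. With single libraries left out it was 3 to 10, beside 3.83% to 9.29% of genes lower. This count was added after seeing the data. Without LPS 1, 2 and 3 the median of the members was 0.058 and the difference in their share of nuclear counts 1.78 percentage points, in place of -1.27; the latter setting was also added later. Of 30 members, 12 kept their direction in all 19 alternatives run for each. Without LPS 1, 2 and 3 the log2 fold change changed sign for Myh6 (0.34), Myh7b (0.90), Myl2 (0.28), Mybpc3 (0.48), Actc1 (1.00), Tpm1 (0.22), Tnni3 (0.44), Tmod1 (0.50), Ldb3 (0.11), Csrp3 (0.091), Myoz2 (0.12), Synpo2l (0.00085) and Fhl2 (0.53), and so did the ratios Myh7/Myh6 (-1.33), Myh7b/Myh6 (0.59) and Acta1/Actc1 (-1.04). Without Ba+LPS 2 and 3 it did for Tpm1 (0.040), Tnnt2 (-0.0036), Myoz2 (0.036) and Pdlim5 (0.14). Voom weights gave Tnnt2 -0.034, Flnc 0.16, Pdlim5 0.16, Des 0.088, Synpo2l 0.069 and Nexn -0.27, and leaving out mitochondrial genes gave Pdlim5 0.00038. With single libraries left out, the values that crossed 0 ranged from -0.12 to 0.057 for Tpm1, -0.043 to 0.098 for Tnnt2, -0.23 to 0.023 for Tmod1, -0.12 to 0.070 for Pdlim5, -0.21 to 0.028 for Des, -0.11 to 0.12 for Synpo2l, -0.15 to 0.14 for Nexn, -0.18 to 0.052 for Fhl2 and -0.31 to 0.41 for the ratio Acta1/Actc1. For these results the cause was not tested. Replicate numbers 1, 2, 3 and 5 occur in both groups. Deviations of same-numbered libraries from their group means had correlations of -0.104, 0.0762, -0.0393 and 0.0517. Whether these libraries share more than a number was not tested. With the replicate block, 0 members passed the adjusted threshold and 9 the unadjusted one, and signs changed for Pdlim5 (0.057), Des (0.023), Synpo2l (0.022) and Nexn (-0.12). The same 8 libraries without the block, a setting added later, gave 8 members and Pdlim5 0.060, Des 0.020, Synpo2l 0.036 and Nexn -0.13. The share over all genes is not given here for either of these settings.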
